A study of Mus musculus with 12 samples.

Results

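The genes described here build the megalin and cubilin system, by which proximal tubule cells of the kidney take filtered proteins back from the urine. They were chosen by name as 10 genes of the count table, out of 55487 genes in all: Lrp2 (megalin), Cubn (cubilin), Amn (amnionless), Lrpap1 (receptor-associated protein), Dab2, Clcn5, Ocrl, Rab11a, Fcgrt and Ctns. All 10 passed the filter on low counts in each comparison. Their RNA was measured by bulk RNA sequencing in 12 libraries of mouse kidney cortex, 3 for each of 4 groups. Control and KO mice had a sham operation, and Control-IR and KO-IR mice had the renal vessels of both sides clamped for 22 min and then reperfused, called I/R below. The sample labels give no reperfusion time, and 24 h is taken from the design text of the series. The mice were 6 to 8 weeks old and of mixed C57BL/6 background. KO and KO-IR mice, whose genotype label is ALR knockdown, carried floxed alleles of ALR (augmenter of liver regeneration, gene Gfer) and a Ggt1-Cre transgene that acts in proximal tubule cells. Control and Control-IR mice are labelled WT. The paper names mice with the floxed alleles and no Cre as controls and elsewhere calls the controls wild-type, so whether the floxed alleles were common to all groups is not settled. No group carried Cre alone.

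Megalin and cubilin are very large receptors of the brush border. Cubilin has no segment that crosses the membrane and depends on amnionless for its transport and anchoring, while megalin is escorted out of the endoplasmic reticulum by receptor-associated protein. The adaptor Dab2 links the receptor tails to clathrin, the endosome is acidified, the ligands go on to the lysosome and the receptors return to the surface through recycling endosomes. This machinery takes up albumin, vitamin-binding proteins and many small filtered proteins, and its inherited failure gives low molecular weight proteinuria.

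Totals ran from 12165089 to 23123693 counts per library. Gfer itself was not lower in the libraries labelled KO, with 9.57 to 15.3 counts per 1000000 counts of the library (CPM) against 12.01 to 13.6 in Control, and it was at 16.8 to 22.6 in Control-IR and 20.1 to 22.1 in KO-IR. A deletion of a stretch of the gene in 1 cell type cannot be checked in counts over the whole gene in all cells, so KO and KO-IR are used below as the labels give them. Control 1 and Control 2 were female and the other 10 libraries male by their Xist and Y-linked counts, so values against Control were also taken with sex as a covariate. As every female library was in Control, the adjusted values against Control and the adjusted interaction rest on Control 3 as the only male Control library. The library called Control 3 could be tied to its group but not to a numbered sample. The 16 genes of a proximal tubule reference list, transporters and enzymes such as Slc34a1, Aqp1 and Miox, took up 1.83 to 2.12% of all counts in Control and KO, 0.752 to 1.45% in Control-IR and 0.565 to 0.671% in KO-IR, and the markers of other cortical cells were also present. In tissue, fewer cells of a type and less RNA per cell cannot be told apart.

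The promoters of Lrp2, Cubn and Dab2 are shown because these members had the largest absolute changes in KO-IR against Control-IR, in opposite directions. Each window runs from 250 bases before to 50 bases after a RefSeq transcription start on assembly GRCm38.p6, and is written 5′ to 3′ on the strand of the gene: chr2:69585980-69586279 on the minus strand for Lrp2, chr2:13491827-13492126 on the minus strand for Cubn, and chr15:6386498-6386797 on the plus strand for the downstream of the listed Dab2 starts. Capitals mark the letters GTTAAT, part of the motif of the tubule factor HNF1.
Lrp2: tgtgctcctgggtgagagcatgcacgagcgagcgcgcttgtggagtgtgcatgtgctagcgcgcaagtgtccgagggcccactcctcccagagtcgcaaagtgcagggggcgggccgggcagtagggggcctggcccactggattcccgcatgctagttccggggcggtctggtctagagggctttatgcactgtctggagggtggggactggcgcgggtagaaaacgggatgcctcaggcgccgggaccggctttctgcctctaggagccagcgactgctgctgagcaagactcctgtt
Cubn: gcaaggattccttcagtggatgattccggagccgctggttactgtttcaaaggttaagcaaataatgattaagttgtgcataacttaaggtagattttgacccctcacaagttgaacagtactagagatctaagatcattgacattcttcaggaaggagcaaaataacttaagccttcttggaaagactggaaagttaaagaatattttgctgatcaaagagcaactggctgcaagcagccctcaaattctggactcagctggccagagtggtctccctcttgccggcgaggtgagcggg
Dab2: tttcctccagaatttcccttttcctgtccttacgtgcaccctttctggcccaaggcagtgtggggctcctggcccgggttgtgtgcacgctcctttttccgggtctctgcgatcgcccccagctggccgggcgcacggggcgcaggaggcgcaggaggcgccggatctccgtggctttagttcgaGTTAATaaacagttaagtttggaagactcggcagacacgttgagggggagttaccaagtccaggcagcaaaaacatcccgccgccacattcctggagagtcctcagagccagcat
Searched on both strands, GTTAAT lay in 1 of the 13 windows of the members, that of Dab2, starting 65 bases before the transcription start. It was in 7.10% of 32851 windows of all genes. The letters TCACGTGA, a motif of lysosomal gene promoters, were in none of the 13 member windows and in 0.974% of all windows. The Lrp2 window held 65.0% G and C, the Cubn window 44.3% and this Dab2 window 59.3%. A match is a description of the letters only.

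On the GRCm38 assembly with the GENCODE M21 annotation, Lrp2 (ENSMUSG00000027070) covers chr2:69424340-69586065 and has 16701 exonic bases, and Cubn (ENSMUSG00000026726) covers chr2:13276338-13491813 with 14935. Amn (ENSMUSG00000021278) is at chr12:111271095-111276426, Lrpap1 (ENSMUSG00000029103) at chr5:35091501-35105766 and Dab2 (ENSMUSG00000022150) at chr15:6299788-6440712. Clcn5 (ENSMUSG00000004317) at chrX:7153810-7319358 and Ocrl (ENSMUSG00000001173) at chrX:47912387-47965868 are X-linked. Fcgrt (ENSMUSG00000003420) is at chr7:45092990-45103851, Rab11a (ENSMUSG00000004771) at chr9:64715299-64737758 and Ctns (ENSMUSG00000005949) at chr11:73183596-73199042. Exons of Cubn share 368 bases with Gm13270 and exons of Dab2 share 211 bases with the pseudogene Gm18888, both on the opposite strand, and the overlapping genes had at most 27 and 22 counts in a library. Rab11a shares 107 exonic bases with Gm47308, which had no count.

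Levels below are CPM after TMM scaling, and for comparison between genes they are divided by the exonic length in kilobases (CPM per kb). In Control, megalin stood far above its partners at 273 ± 24.9 CPM per kb (SD, n = 3). Lrpap1 followed at 123 ± 7.55, Fcgrt at 92.3 ± 12.6, Dab2 at 86.6 ± 8.69, Cubn at 69.3 ± 8.76 and Amn at 48.8 ± 8.81 CPM per kb. Rab11a at 24.3 ± 0.726, Clcn5 at 17.8 ± 0.976, Ctns at 10.8 ± 0.425 and Ocrl at 3.29 ± 0.109 CPM per kb were the low end. Only the libraries of the neighbours Fcgrt and Dab2 overlapped in this order. KO had the same order, with megalin at 256 ± 19.5 CPM per kb and no overlap between neighbours. In Control-IR megalin was at 114 ± 44.5 CPM per kb, and the libraries of every gene from Lrp2 down to Amn overlapped those of the next in order. In KO-IR the order was another: Dab2 led at 183 ± 4.37 CPM per kb, Fcgrt was next at 115 ± 2.32, Lrp2 at 42.9 ± 4.14 shared the third place with Lrpap1 at 42.9 ± 1.18, and Cubn at 8.63 ± 0.627 CPM per kb was the ninth of 10, above Ocrl alone.

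**Figure D1:**
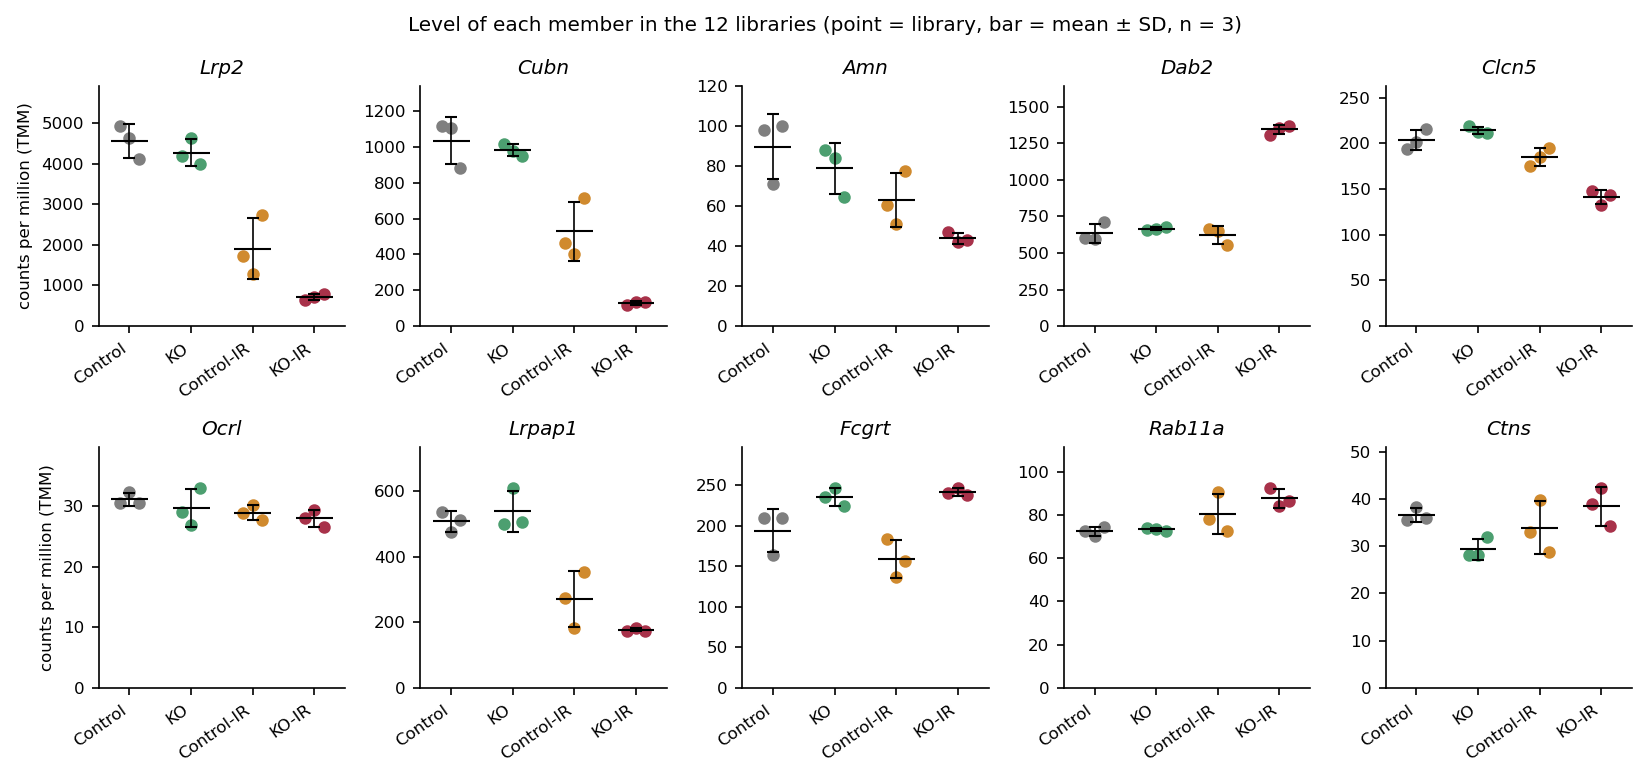
Level of the 10 genes in the 12 libraries, as CPM after TMM scaling on a linear axis from 0, by group; points are libraries, and bars give the mean ± SD (n = 3). Lrp2 and Cubn fell after I/R and were lowest in KO-IR, at 648 to 786 and 118 to 136 CPM, while Dab2 stood at 1309 to 1369 CPM in KO-IR and at 709 or below in every other library.

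The comparison of Control-IR with Control asks how kidneys after I/R differed from sham kidneys in mice labelled WT. The receptor genes and the receptor chaperone fell: Lrp2, Cubn and Lrpap1 were each called lower, and no member was called higher. That is 3 of 10 members called lower where 7.97% of the 15567 genes tested were, and 0 of 10 called higher where 11.4% were. The median log2 fold change was -0.21 over the members, -0.01 over all genes tested and -0.83 over the 16 genes of the proximal tubule reference list, 7 of which were called lower and none higher. Of the markers of other tubule segments, all 4 of the distal tubule were called lower (median -1.98), 2 of 6 of the collecting duct (median -0.74) and none of 5 of the thick ascending limb (median -0.55). Of the other cells, 4 of 4 neutrophil markers (median 3.76), 5 of 6 macrophage markers (median 1.17) and 4 of 5 fibroblast markers (median 1.45) were called higher, and 3 of 5 podocyte markers (median -0.67) and 1 of 5 endothelial markers lower. Their part in the values of the members was not tested.

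Lrp2 was at 4927, 4625 and 4105 CPM in Control and at 1728, 1273 and 2727 CPM in Control-IR. The groups did not overlap, and Control-IR 4 stood above the other injured kidneys. Lrp2 RNA was 2.37-fold lower (log2 fold change -1.25 ± 0.30 SE; adjusted p = 0.0318 by edgeR). Cubn went from 1117, 1104 and 885 CPM to 464, 405 and 716 CPM, again without overlap and again highest in Control-IR 4, and was 1.95-fold lower (log2 fold change -0.96 ± 0.24 SE; adjusted p = 0.0337 by edgeR). Lrpap1, which keeps megalin from binding ligands too early, was at 536, 474 and 511 CPM in Control and at 275, 181 and 352 CPM in Control-IR, 1.87-fold lower (log2 fold change -0.91 ± 0.24 SE; adjusted p = 0.0385 by edgeR). These calls rested on few libraries. Without Control 1, Control 2 or Control-IR 1 none of these genes was called, with edgeR adjusted p between 0.0990 and 0.119 and log2 fold changes of -1.18, -1.22 and -1.18 for Lrp2, -0.90, -0.90 and -0.88 for Cubn and -0.86, -0.94 and -0.93 for Lrpap1. Cubn also lost its call without Control-IR 2, at -0.79 with adjusted p = 0.0631, and with sex as a covariate, at -0.74 with adjusted p = 0.0610. Lrpap1 lost its call without Control 3 as well, at -0.89 with adjusted p = 0.0711. Against the only male Control library, at 4105 CPM of Lrp2 and 885 of Cubn, every Control-IR library was still lower.

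The remaining members of the pathway did not pass the test in this comparison. Amn was at 98.3, 71.2 and 100 CPM in Control and at 60.4, 51.1 and 77.7 CPM in Control-IR, a log2 fold change of -0.51 (SE 0.19, edgeR adjusted p = 0.102), and the groups overlapped. It passed without Control-IR 4, at -0.68 with adjusted p = 0.0394, in the fit to all 12 libraries (adjusted p = 0.0402) and with the replicate block (0.0300). Dab2, with a log2 fold change of -0.02 (SE 0.15), and Clcn5, with -0.13 (SE 0.11), also overlapped between the groups. For Fcgrt, Rab11a, Ctns and Ocrl the log2 fold changes were -0.28, 0.16, -0.10 and -0.10, with SE of 0.09 to 0.16 and under scaling to total counts Dab2, Ctns and Ocrl changed sign, to 0.10, 0.016 and 0.018. For Ocrl the groups did not overlap, with 30.6, 32.4 and 30.6 CPM in Control and 29.0, 30.3 and 27.7 CPM in Control-IR.

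The comparison of KO-IR with KO asks the same of mice labelled as ALR knockdown. Here 8 of the 10 members were called. Lrp2, Cubn, Amn, Lrpap1 and Clcn5 fell, and Dab2, Ctns and Rab11a rose. These 5 and 3 stand beside a background of 32.7% of 15155 genes called lower and 32.9% called higher, so a large share of the transcriptome was called in either direction. The median log2 fold change was -0.35 over the members, 0.01 over all genes tested and -2.09 over the proximal tubule reference list, all 16 of which were called lower. It was -3.15 over 5 thick ascending limb markers, all called lower, -1.78 over 4 distal tubule markers, of which 3 were called lower and 1 higher, and -0.75 over 6 collecting duct markers, of which 5 were called lower. Of the other cells, 4 of 4 neutrophil markers (median 5.07), 3 of 5 endothelial markers (median 0.41), 2 of 5 fibroblast markers (median 0.41) and 1 of 6 macrophage markers (median -0.70) were called higher, and 1 endothelial, 4 macrophage and 1 of 5 podocyte markers lower.

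Lrp2 was at 4187, 4635 and 4001 CPM in KO and at 648, 715 and 786 CPM in KO-IR, 5.99-fold lower (log2 fold change -2.58 ± 0.12 SE; adjusted p = 8.54e-08 by edgeR). Cubn was at 1018, 976 and 952 CPM in KO and at 118, 132 and 136 CPM in KO-IR, 7.65-fold lower (log2 fold change -2.94 ± 0.10 SE; adjusted p = 3.22e-08 by edgeR). Within each group the libraries lay close together, and the groups were far apart for both receptors. Lrp2 alone made up 0.377 to 0.413% of all counts in KO and 0.0622 to 0.0732% in KO-IR, and its share of the counts of all 10 members went from between 59.1 and 61.3% to between 22.8 and 25.9%. Amn, the partner without which cubilin does not reach the surface, was at 88.1, 84.1 and 64.6 CPM in KO and at 47.1, 42.0 and 42.9 CPM in KO-IR, 1.80-fold lower (log2 fold change -0.85 ± 0.12 SE; adjusted p = 1.42e-04 by edgeR). Lrpap1 fell from 501, 611 and 504 CPM to 174, 182 and 174 CPM, 3.06-fold lower (log2 fold change -1.61 ± 0.10 SE; adjusted p = 6.25e-07 by edgeR). None of these 4 genes overlapped between the groups.

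Dab2 moved against its receptors. It was at 657, 667 and 677 CPM in KO and at 1309, 1358 and 1369 CPM in KO-IR, 2.01-fold higher (log2 fold change 1.005 ± 0.09 SE; adjusted p = 4.88e-06 by edgeR). Of the genes that set the endosome's interior, Clcn5, the chloride and proton exchanger mutated in Dent disease, was at 219, 212 and 212 CPM in KO and at 147, 132 and 144 CPM in KO-IR, 1.53-fold lower (log2 fold change -0.61 ± 0.08 SE; adjusted p = 1.07e-04 by edgeR). Ocrl, a phosphoinositide phosphatase mutated in Lowe syndrome, was at 26.6 to 33.1 CPM in all 6 libraries (log2 fold change -0.09, SE 0.11) and did not pass. Of the genes of recycling and of the lysosome, Rab11a, a small GTPase of recycling endosomes, was at 74.2, 73.7 and 72.5 CPM in KO and at 92.9, 84.4 and 86.8 CPM in KO-IR (log2 fold change 0.25 ± 0.08 SE; adjusted p = 0.0153 by edgeR), and without KO 4 it was no longer called (0.24, adjusted p = 0.0542). Ctns, the lysosomal exporter of cystine, was at 28.1, 28.2 and 32.0 CPM in KO and at 38.9, 42.5 and 34.2 CPM in KO-IR (log2 fold change 0.38 ± 0.11 SE; adjusted p = 0.0110 by edgeR). Both were higher in every KO-IR library than in any KO library, and both lost their call with the replicate block, Rab11a at 0.29 (adjusted p = 0.0512) and Ctns at 0.28 (adjusted p = 0.130). Fcgrt, the neonatal Fc receptor that spares albumin and immunoglobulin G from breakdown, was at 235, 246 and 225 CPM in KO and at 241, 247 and 238 CPM in KO-IR, with overlap (log2 fold change 0.03, SE 0.08).

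**Figure D2:**
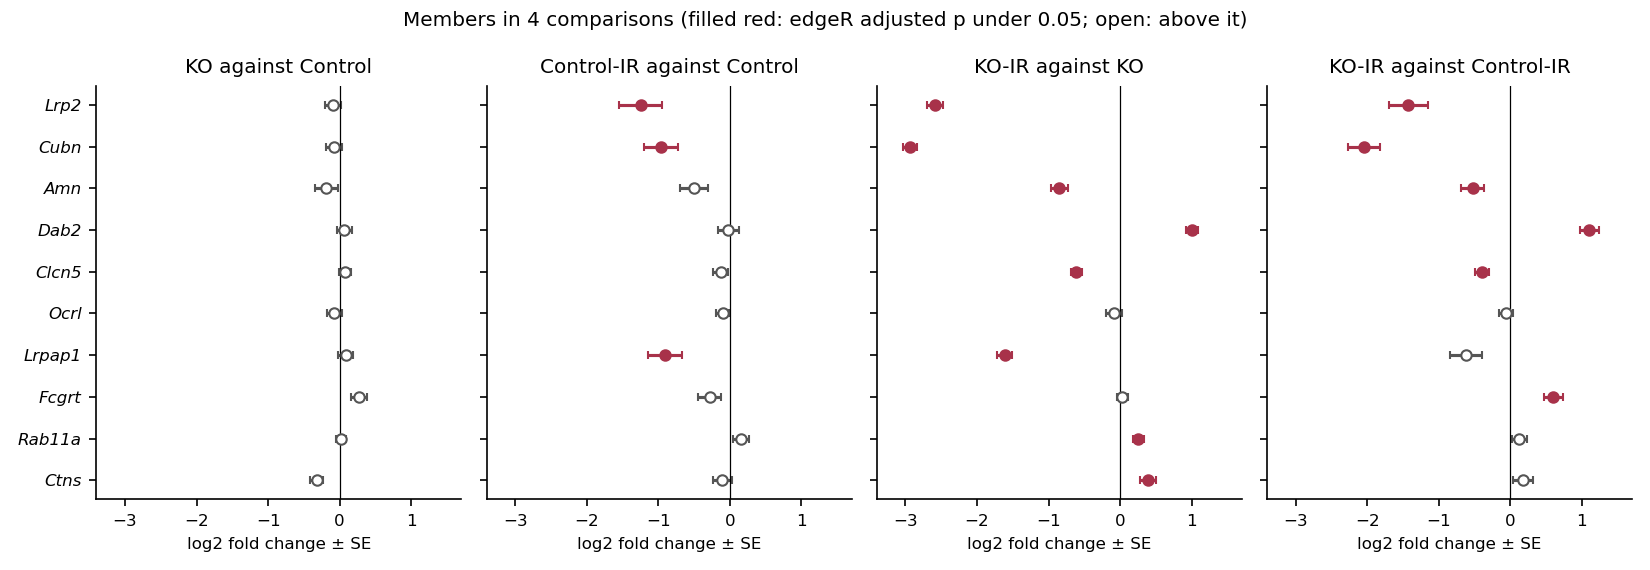
Log2 fold change ± SE of the 10 genes in 4 comparisons of 3 against 3 libraries; filled red points have an edgeR adjusted p under 0.05, open points do not. In KO against Control no gene is filled, and the receptors lie furthest to the left in KO-IR against KO, at -2.58 for Lrp2 and -2.94 for Cubn, with Dab2 at 1.005.

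The comparison of KO-IR with Control-IR asks how injured kidneys differed between the genotype labels, and it shares the KO-IR libraries with the comparison before. Lrp2, Cubn, Amn and Clcn5 were lower in KO-IR, and Dab2 and Fcgrt were higher. These are 4 members called lower beside 24.4% of 15281 genes tested, and 2 called higher beside 22.5%. The median log2 fold change was -0.23 over the members, -0.0049 over all genes tested and -1.14 over the proximal tubule reference list, where 11 of 16 genes were called lower and none higher. It was -2.37 over the thick ascending limb markers, 4 of 5 of which were called lower, 0.10 over the distal tubule markers, with 1 of 4 called each way, and -0.39 over the collecting duct markers, with none called. Under scaling to total counts the median over all genes tested moved to -0.21, and 1978 of 7058 called genes were higher, against 3444 of 7169 under TMM. The 6 members kept their direction under that scaling. With the replicate number as a block the call of Cubn was kept and the other 5 were lost, Lrp2 at -1.38 (adjusted p = 0.0551), Dab2 at 1.16 (0.0555), Fcgrt at 0.71 (0.0923), Amn at -0.49 (0.232) and Clcn5 at -0.39 (0.273). Only the numbers 2 and 4 occur in both groups, so the block fit rests on the libraries with these numbers.

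Cubn showed the larger difference of the receptors, with 118, 132 and 136 CPM in KO-IR against 464, 405 and 716 CPM in Control-IR, 4.12-fold lower (log2 fold change -2.04 ± 0.22 SE; adjusted p = 4.67e-04 by edgeR). Lrp2, at 648, 715 and 786 CPM against 1728, 1273 and 2727 CPM, was 2.68-fold lower (log2 fold change -1.42 ± 0.27 SE; adjusted p = 0.00422 by edgeR). For neither receptor did the groups overlap, and the spread was wider in Control-IR, with an SD of 39.0% of the mean for Lrp2 against 9.66% in KO-IR. Amn was 1.44-fold lower (log2 fold change -0.53 ± 0.16 SE; adjusted p = 0.0273 by edgeR), with all KO-IR libraries at or below 47.1 CPM and all Control-IR libraries at or above 51.1. Its call was lost without Control-IR 1, KO-IR 2, KO-IR 3 or KO-IR 4, with adjusted p of 0.0538, 0.0521, 0.0946 and 0.0924 and log2 fold changes of -0.56, -0.56, -0.48 and -0.50. Lrpap1 was lower by a log2 fold change of -0.62 (SE 0.22) but did not pass, with edgeR adjusted p = 0.0507. Its 174 to 182 CPM in KO-IR overlapped with Control-IR 2 at 181 CPM, and without that library it passed at -0.84 with adjusted p = 0.00140. Without Control-IR 4 it was at -0.38 with adjusted p = 0.122, and with the replicate block at -0.54 with adjusted p = 0.268. It passed in 7 of 13 alternatives, among them DESeq2 (adjusted p = 0.0189), total counts (0.0136), no filter (0.0206) and the fits to 12 libraries without and with sex (0.0174 and 0.0198).

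Dab2 was higher in KO-IR than in Control-IR, at 1309, 1358 and 1369 CPM against 666, 651 and 553 CPM, 2.15-fold (log2 fold change 1.10 ± 0.13 SE; adjusted p = 6.17e-04 by edgeR). Fcgrt, at 241, 247 and 238 CPM against 183, 137 and 156 CPM, was 1.52-fold higher (log2 fold change 0.60 ± 0.13 SE; adjusted p = 0.00749 by edgeR). In both cases every KO-IR library exceeded every Control-IR library. Clcn5 was 1.32-fold lower (log2 fold change -0.40 ± 0.10 SE; adjusted p = 0.0134 by edgeR), at 147, 132 and 144 CPM against 175, 185 and 196 CPM, and its call was lost without KO-IR 3 (-0.34, adjusted p = 0.0652). Ocrl, Rab11a and Ctns did not pass, with log2 fold changes of -0.06, 0.12 and 0.18 and SE of 0.10 to 0.14, and under scaling to total counts Rab11a was at -0.09 and Ctns at -0.03.

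Without injury the machinery showed no call. In KO against Control 0 of the 10 members and 0 of 15291 genes passed the edgeR test, a background of 0% in either direction. At an unadjusted p under 0.05 there were 2573 genes, of which 2 were members, and DESeq2 called 440 genes and no member. Lrp2, at 4187, 4635 and 4001 CPM in KO, overlapped with Control and had a log2 fold change of -0.09 (SE 0.11), and Cubn one of -0.08 (SE 0.12). With sex as a covariate these values were 0.06 and 0.15. Fcgrt, at 235, 246 and 225 CPM against 210, 163 and 209 CPM, was higher in every KO library (log2 fold change 0.28, SE 0.11, unadjusted p = 0.0395, edgeR adjusted p = 0.277). Ctns, at 28.1, 28.2 and 32.0 CPM against 35.6, 38.3 and 36.0 CPM, was lower in every KO library (log2 fold change -0.32, SE 0.09, unadjusted p = 0.00735, edgeR adjusted p = 0.207). The other 8 overlapped between the groups, with log2 fold changes from -0.19 for Amn to 0.08 for Lrpap1, and under scaling to total counts Clcn5, Dab2, Lrpap1 and Rab11a changed sign, to between -0.11 and -0.043. Leaving out 1 library gave -0.33 to -0.065 for Amn and 0.17 to 0.33 for Fcgrt. Of the 16 reference genes, 6 were lower in every KO library and 0 higher. How many of all genes tested did not overlap was not counted, here or in the other comparisons.

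Whether I/R acted differently between the genotype labels was tested as an interaction over the 12 libraries, the log2 response of KO minus that of Control. It was called for 5 of 10 members, beside 30.6% of 16168 genes: Lrp2 (-1.32, SE 0.31, edgeR adjusted p = 0.00841), Cubn (-1.96, SE 0.26, adjusted p = 3.29e-04), Clcn5 (-0.47, SE 0.12, adjusted p = 0.0141), Dab2 (1.04, SE 0.16, adjusted p = 6.79e-04) and Ctns (0.50, SE 0.17, adjusted p = 0.0453). Lrp2, Cubn and Clcn5 thus had the more negative response in KO, and Dab2 had a positive response in KO beside -0.02 in Control. In the same test 9 of 16 proximal tubule reference genes (median -1.08), 3 of 5 thick ascending limb markers (median -2.11), 5 of 6 macrophage markers (median -1.60), 4 of 5 lymphocyte markers (median -3.94) and 2 of 5 fibroblast markers (median -1.14) were called lower. Called higher were 3 of 5 endothelial markers (median 0.42) and 1 each of the macrophage, podocyte, distal tubule and collecting duct markers. No neutrophil marker was called (median 1.10). The part of these cells in the interaction of the members was not tested. With the replicate block Dab2 and Cubn were called, and Lrp2 was at -1.16 (adjusted p = 0.0619), Clcn5 at -0.47 (0.0628) and Ctns at 0.39 (0.205). With sex as a covariate 3 members were called, Clcn5 being lost at -0.38 (adjusted p = 0.0842) and Ctns at 0.47 (adjusted p = 0.141). Ctns also missed the threshold without any single library other than Control-IR 2, KO 4 and KO-IR 4, with values of 0.39 to 0.52 and adjusted p of 0.0615 to 0.111. For Lrpap1 the interaction was -0.69 (SE 0.26, adjusted p = 0.0653), and it passed without Control-IR 2 at -0.92 (adjusted p = 0.00225), with DESeq2 (0.0431), with no filter (0.0425) and under total counts (0.0373). Without Control-IR 4 it was at -0.46 (adjusted p = 0.146), with the replicate block at -0.66 (0.210) and with sex as a covariate at -0.68 (0.170). For Amn (-0.33), Fcgrt (0.33), Rab11a (0.11) and Ocrl (0.02) it was not called.

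The receptors were also set against the summed counts of the 16 reference genes within each library, a ratio that needs no scaling between libraries. The sum weighs genes by their counts. In KO-IR Slc27a2 and Slc4a4 led it with means of 2338 and 1143 CPM, beside 2084 and 977 in Control-IR, where 11 of 16 genes were called lower in KO-IR. The median log2 fold change of the list was -1.14 against Control-IR and -2.09 against KO. That of Lrp2 was -1.42 and -2.58, and that of Cubn -2.04 and -2.94. The ratio of Lrp2 to the reference was 0.244, 0.230 and 0.190 in Control, 0.168, 0.191 and 0.207 in Control-IR, 0.216, 0.221 and 0.206 in KO, and 0.0927, 0.120 and 0.130 in KO-IR. KO-IR lay below all other libraries, and Control-IR overlapped with Control. On the log2 scale the difference was -0.73 for KO-IR against Control-IR and -0.92 for KO-IR against KO, each with an exact two-sided permutation p of 0.1, the smallest that 3 against 3 allows, and 0.171 adjusted over 12 such tests. The ratio of Cubn to the reference was 0.0554, 0.0550 and 0.0409 in Control, 0.0453, 0.0608 and 0.0542 in Control-IR, 0.0525, 0.0465 and 0.0490 in KO, and 0.0170, 0.0222 and 0.0225 in KO-IR. Control-IR overlapped with Control here too, and in KO-IR the ratio was 2.60-fold lower than in Control-IR and 2.42-fold lower than in KO (exact permutation p = 0.1, adjusted 0.171).

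The ratio of Lrp2 to Cubn lay outside the range of the sham libraries in both I/R groups, on opposite sides. There were 4.41, 4.19 and 4.64 counts of Lrp2 for each count of Cubn in Control and 4.11, 4.75 and 4.20 in KO, which overlapped. The ratio was 3.72, 3.14 and 3.81 in Control-IR, below every Control library, and 5.47, 5.42 and 5.76 in KO-IR, above every other library. The log2 differences were -0.31 for Control-IR against Control, 0.35 for KO-IR against KO and 0.65 for KO-IR against Control-IR, each at the smallest exact permutation p of 0.1 (adjusted 0.171). The adaptor was set against its receptor per kb of exon. Dab2 was at 0.278 to 0.393 of the Lrp2 level in Control, 0.327 to 0.385 in KO, 0.461 to 1.16 in Control-IR and 3.96 to 4.60 in KO-IR. Amn, per kb, was at 0.522 to 0.918 of the Cubn level in Control, 0.550 to 0.701 in KO, 0.879 to 1.05 in Control-IR and 2.55 to 3.22 in KO-IR, and Lrpap1 went from 0.416 to 0.506 of the Lrp2 level in Control to 0.898 to 1.09 in KO-IR. In each of these cases the KO-IR libraries lay above all others.

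**Figure D3:**
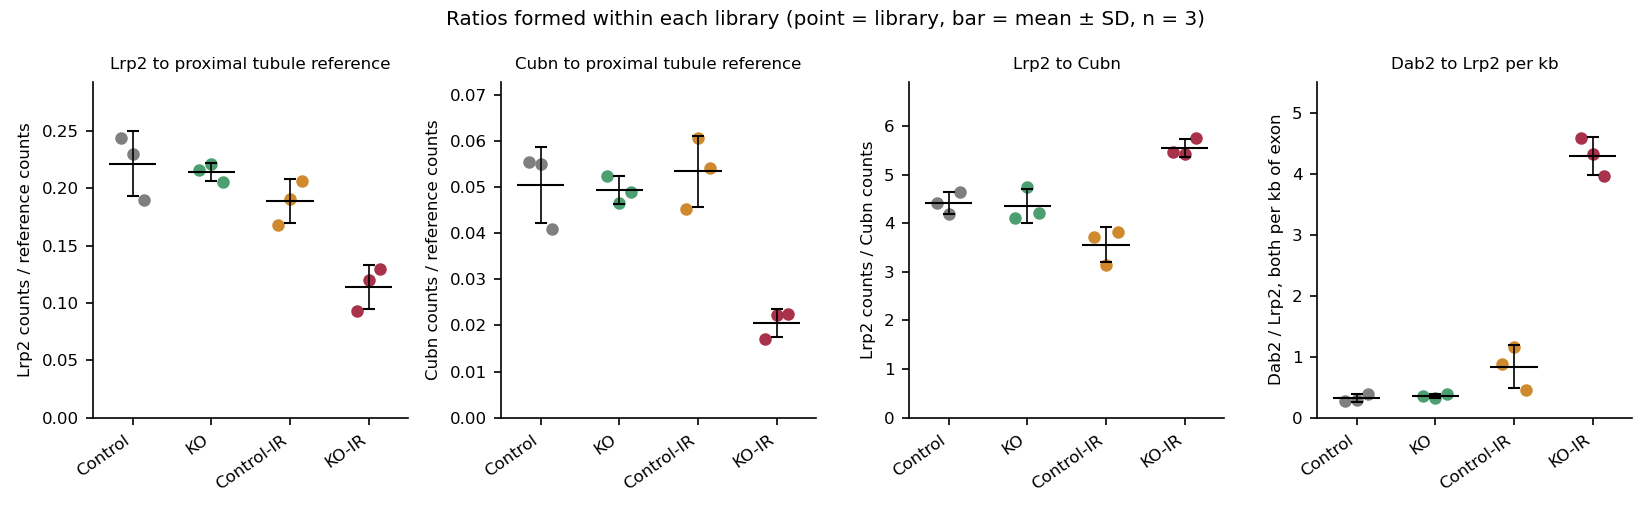
Ratios formed within each library, on linear axes from 0; points are libraries, and bars give the mean ± SD (n = 3). From left to right, Lrp2 and Cubn counts over the summed counts of 16 proximal tubule reference genes, Lrp2 counts over Cubn counts, and Dab2 over Lrp2 per kb of exon, where KO-IR stands at 3.96 to 4.60 and no other library above 1.16.

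Several genes here are also known in other cells, Dab2 and Fcgrt in macrophages and endothelium among them, so the markers of these cells were read beside them. The summed level of 6 macrophage markers was 53.8 to 60.8 CPM in KO-IR, 87.8 to 140 in Control-IR, 80.2 to 82.0 in KO and 72.8 to 98.4 in Control. Against Control-IR, 5 of the 6 were called lower in KO-IR and Cd68 was called higher. Against KO, 4 were called lower and Cd68 higher. The sum of 5 endothelial markers was 355 to 359 CPM in KO-IR and 267 to 308 in all other libraries, with 3 called higher and 1 lower against Control-IR and a median log2 fold change of 0.44. Fibroblast markers summed to 537 to 732 CPM in Control-IR and 134 to 236 in KO-IR, with 3 of 5 called lower, and the 4 neutrophil markers to 43.5 to 66.4 CPM in KO-IR and 8.79 to 39.5 in Control-IR, with 2 called higher. Of 5 podocyte markers, 1 was called lower and none higher against Control-IR. No marker of these lists was at 0 in any library. The part of any of these cell types in the levels of Dab2, Fcgrt and the other members was not tested.

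The wider uptake pathway was read from lists of genes that act before and after the members. For the clathrin coat and its adaptors, 8 of 22 genes were called higher and 3 lower in KO-IR against Control-IR, where 22.5% of all genes tested were called higher and 24.4% lower, with a median log2 fold change of 0.15. Epn2, an endocytic accessory protein, was higher at 0.88 (SE 0.15, edgeR adjusted p = 0.00228) and Gipc1, which binds the megalin tail, at 0.72. Against KO, where 32.9% of all genes were called higher and 32.7% lower, 12 were called higher and 3 lower, among them Gipc1 at 1.24 and, on the other side, the endocytic motor Myo6 at -0.96. Of 32 genes tested for early and recycling endosomes, 11 were called higher and 2 lower against Control-IR. The Rab11 effector Rab11fip3 fell most, at -1.74 (SE 0.14, edgeR adjusted p = 1.99e-04), and -2.24 against KO, while Rab5a, the GTPase of early endosomes, was at 0.76 and Pheta1, a partner of Ocrl, at 0.88 against Control-IR. Against KO, 9 were called higher and 11 lower, with Ehd4 at 1.15 and Rab35 at 0.87. Against Control-IR the replicate block ended the calls of Epn2 (adjusted p = 0.0732), Gipc1 (0.0997), Rab5a (0.0514) and Pheta1 (0.0531).

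Among 24 genes of endosomal acidification and ion exchange, 4 were called higher and 3 lower against Control-IR, and 4 higher and 12 lower against KO, beside 22.5% and 24.4% of all genes in the former comparison and 32.9% and 32.7% in the latter. The proton pump subunit Atp6v0a1 was higher in both, by 1.53 (SE 0.11, edgeR adjusted p = 1.30e-04) and 1.52, Slc9a3, the brush border sodium and proton exchanger, was at 1.15 and Atp6v1b2 at 0.88 against Control-IR (0.83 with the replicate block, no longer called at adjusted p = 0.0909), and Atp6v1a at -1.11 and Clcn3 at -0.998 against KO. Of 32 lysosome genes, 10 were called higher and 6 lower against Control-IR, and 14 and 12 against KO, where the same shares of all genes apply. Here Scarb2, a lysosomal membrane protein, was at 1.43, the protease Ctsl at 1.33 and the hexosaminidase subunit Hexa at -1.21 against Control-IR, and Ctsd at 2.03, Ctsl at 1.89 and Ctsf at -1.59 against KO.

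Of 13 other endocytic receptors, 2 were called higher and 3 lower against Control-IR, beside 22.5% and 24.4% of all genes, and 5 each way against KO, beside 32.9% and 32.7%. Havcr1, the injury marker KIM-1 and itself a phagocytic receptor, was at 11.22 (SE 0.30, edgeR adjusted p = 2.11e-08) against KO. Against Control-IR it was at 1.53 with adjusted p = 0.0494, and it lost that call without any single library other than Control-IR 2, with adjusted p of 0.0619 to 0.149. Without Control-IR 2 it was at 2.41 (adjusted p = 0.00122). Havcr1 was also no longer called with DESeq2 (adjusted p = 0.0835), total counts (0.0843), at least 10 counts in every library (0.0535) and the replicate block (log2 fold change 1.59), so in 9 of 13 alternatives. Cd36 was at 0.78 against Control-IR (adjusted p = 0.0179), lost without Control-IR 1, Control-IR 4 or KO-IR 3 at 0.63, 0.65 and 0.70, in the fit to all 12 libraries (adjusted p = 0.164), under total counts (0.0722) and with the replicate block (0.226). Sort1 was at -0.70 (adjusted p = 0.0121), lost without KO-IR 3 or KO-IR 4 at -0.64 and -0.63 and with the replicate block at -0.66 (adjusted p = 0.158). Against KO, Lrp8 was at 3.76 and the folate receptor Folr1 at -1.19. The RNAs of proteins that megalin or cubilin bind were called higher for 7 of 17 genes tested and lower for 2 against Control-IR, with a median of 0.51, and for 9 and 7 of 18 against KO. The metallothioneins Mt1 and Mt2 were at 2.97 and 2.76 and Alb at 2.79 against Control-IR, and Lcn2, which encodes the injury marker NGAL, was at 10.04 and Mt2 at 4.66 against KO. Within the reference list the genes named by the rule were Gatm at -4.30, Slc5a12 at -3.56 and Slc13a3 at -2.77 against Control-IR and -5.68, -4.03 and -3.35 against KO, each further down than either Lrp2 or Cubn. The rule takes the largest changes of a list, and 2 of the 16 reference genes had a log2 fold change above 0 against Control-IR.

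**Figure D4:**
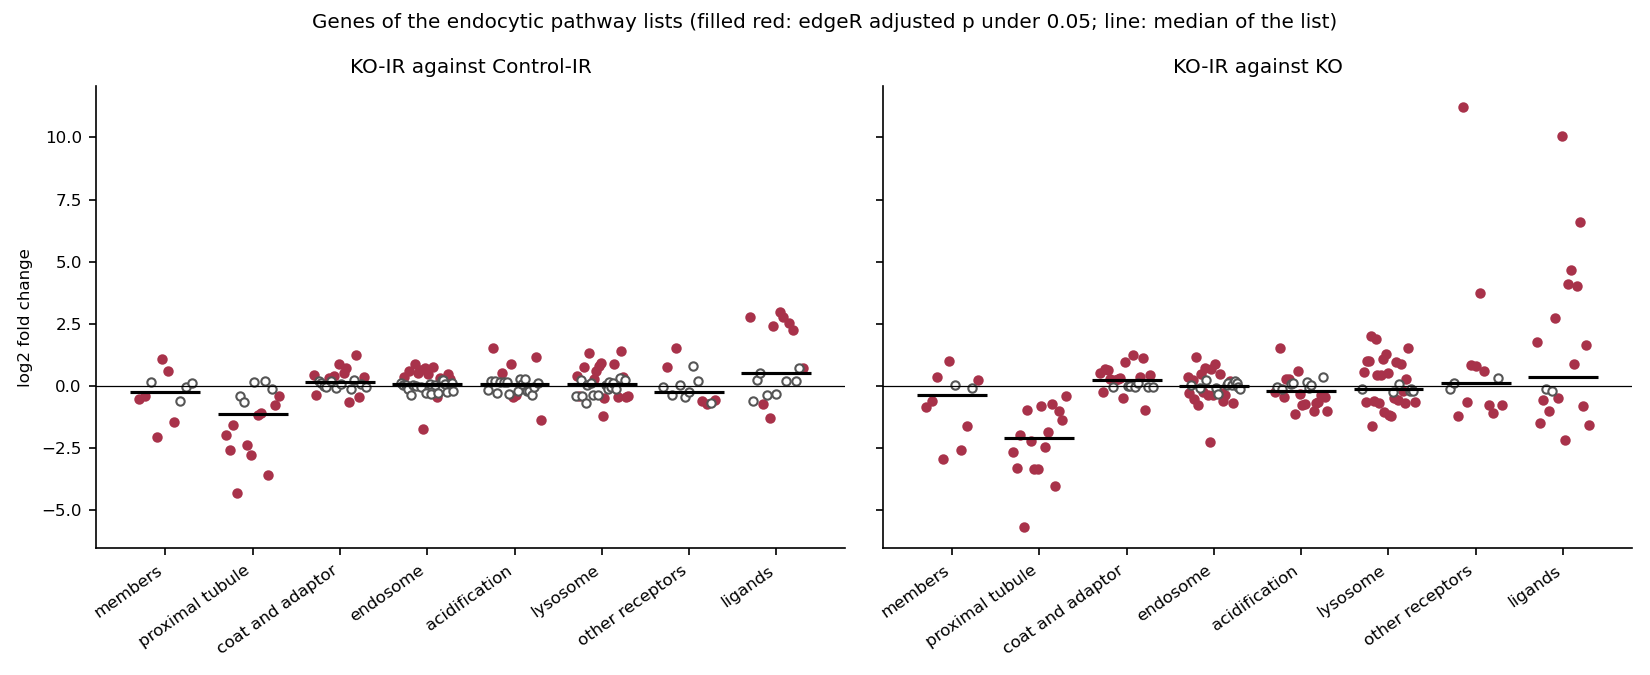
Log2 fold change of every tested gene of 8 lists in KO-IR against Control-IR and against KO; filled red points have an edgeR adjusted p under 0.05, and lines are list medians. The proximal tubule list lies lowest, with medians of -1.14 and -2.09, while the coat, endosome, acidification and lysosome lists lie around 0.

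By rule the genes most like Lrp2, Cubn and Dab2 over the 12 libraries were named among 10981 genes, by the Pearson correlation of log2 CPM. The libraries fall into 4 groups that the genes share, so the values describe likeness of pattern only. Nearest to Lrp2 were Kidins220 (r = 0.994), the sterol synthesis enzyme Cyp51 (0.993) and the adenylate kinase Ak4 (0.992). Nearest to Cubn were Amt, of the glycine cleavage system (0.995), the clock gene Per3 (0.994) and BC034090 (0.994), and nearest to Dab2 were Dazap2 (0.992), Wdr26 (0.988) and the sorting nexin Snx4 (0.986).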

How the data were processed

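RNA of mouse kidney cortex was extracted, libraries were built from total RNA, and the authors deposited 1 table of read counts per gene for 12 libraries. Per the labels, the submitters' processing notes name HISAT2 2.0.4 and the mm10 build. The counting program, annotation and strand setting are not given in the sources used here. The deposited counts are whole numbers, neither normalized nor filtered. The members and the gene lists were chosen with earlier results of these data known.

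Symbols, coordinates and exonic lengths came from GENCODE M21, and 55141 identifiers had a symbol. Promoters came from RefSeq, GRCm38.p6, where all 10 members matched. After filterByExpr and TMM scaling, edgeR 4.0.16 under R 4.3.3 fitted quasi-likelihood models and gave F tests, using the 6 libraries of each comparison and all 12 for the interaction. Benjamini-Hochberg adjustment ran over all genes tested, and a call means adjusted p under 0.05. Ratios within libraries were compared by exact two-sided permutation tests. Scripts were tested on simulated data.

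Named were the 10 members, up to 3 called genes of each list that is no cell type marker, with the largest absolute change and a mean count of at least 100, in KO-IR against Control-IR and in KO-IR against KO, and the 3 genes most correlated with Lrp2, Cubn and Dab2. Some genes that this rule selects are not reported here. Alternatives were DESeq2 1.42.0, scaling to total counts, no filter, a minimum of 10 counts per library, a joint fit of all 12 libraries with and without sex, the replicate number as a block and leaving out each library. Totals of 12165089 or more left counting error small. For each pair of replicates the squared scatter, as a mean over genes, was 8.22 to 67.0 times the variance from counting alone. No library was a copy of another, and the labels do not say that the libraries came from separate mice, so p-values measure the spread between these samples.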

Additional observations from a re-analysis of the deposited data

Results flagged for a closer look

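For 5 members the response to I/R differed between KO and Control in the interaction test of edgeR over 12 libraries, which called 30.6% of 16168 genes, given as the log2 response of KO minus that of Control. Lrp2 differed by -1.32 (adjusted p = 0.00841), between responses of -1.25 in Control and -2.58 in KO, and was no longer called with the replicate block (-1.16, adjusted p = 0.0619). Cubn differed by -1.96 (adjusted p = 3.29e-04), from -0.96 and -2.94. Dab2 differed by 1.04 (adjusted p = 6.79e-04), from -0.02 and 1.005, and was the member with a positive difference that stayed called under every alternative run. Clcn5 differed by -0.47 (adjusted p = 0.0141), from -0.13 and -0.61, and was no longer called with sex as a covariate or with the replicate block. Ctns differed by 0.50 (adjusted p = 0.0453), from -0.10 and 0.38, and missed the threshold in 14 of 18 alternatives. The groups held 3 libraries each, too few to test single libraries as outliers.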

How the results depend on the processing

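Of 311 alternative values for the 22 member calls, 269 stayed called in the same direction and 42 were no longer called, and none changed sign. Leaving out 1 library gave 0 to 4 members called in Control-IR against Control (0 without Control 1, Control 2 or Control-IR 1), 4 to 7 in KO-IR against Control-IR, 7 to 8 in KO-IR against KO, 0 in KO against Control and 4 to 6 in the interaction. Over all genes the same fits called 379 to 4061 (379, 413 and 833 in those with 0 members), 4918 to 7509, 9111 to 10262, 0 to 1930 and 3622 to 5509, in that order. Sex as a covariate gave 3 members in the interaction. The replicate number as a block gave 4 members in Control-IR against Control and 6 in KO-IR against KO. It gave 2 in the interaction and 1 (Cubn) in KO-IR against Control-IR. Over all genes these block fits called 3612, 8437, 3215 and 1683, in that order. In a comparison of 2 groups, a library whose number is missing from the other group adds nothing to the block fit. This leaves the numbers 1 and 2 against Control, which are the female Control libraries, and the numbers 2 and 4 in comparisons of KO-IR. Same-numbered libraries did not in general deviate together (median correlation -0.026 over 12 pairs, from -0.215 to 0.235, 1 above 0.1). What the number stands for is not settled by these values or by the labels. Over all genes, DESeq2 called 440 and the unfiltered fit 388 genes in KO against Control, and the block 1378. Scaling to total counts moved the median of all genes by 0.11 in Control-IR against Control (2346 of 3112 calls higher, against 1778 of 3019), -0.14 in KO against Control and -0.10 in the interaction (1591 of 4588 higher, against 2305 of 4953).

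Signs turned for uncalled values near 0. Under total counts these were, in Control-IR against Control, Ctns 0.016, Ocrl 0.018 and Dab2 0.10, in KO against Control Clcn5 -0.048, Dab2 -0.050, Lrpap1 -0.043 and Rab11a -0.11, in KO-IR against Control-IR Ctns -0.029 and Rab11a -0.087, and for the interaction Ocrl -0.066. With sex as a covariate KO against Control gave Clcn5 -0.0083, Cubn 0.15, Dab2 -0.088, Lrp2 0.058 and Rab11a -0.024, and the interaction of Ocrl was -0.00615. It was -0.0073 with at least 10 counts in every library, -0.0055 with no filter and -0.0041 with the replicate block, which also gave Amn 0.035 in KO against Control and Dab2 0.15 in Control-IR against Control. Leaving out 1 library spanned -0.080 to 0.075 for Dab2 in Control-IR against Control, -0.00022 to 0.064 for Fcgrt in KO-IR against KO, -0.047 to 0.11 for the interaction of Ocrl and, in KO against Control, -0.010 to 0.14 for Lrpap1, -0.16 to 0.0014 for Ocrl and -0.0043 to 0.038 for Rab11a. For the log2 ratios it spanned, in KO against Control, -0.16 to 0.055 for Cubn to the reference, -0.085 to 0.018 for Lrp2 to Cubn and -0.15 to 0.034 for Lrp2 to the reference, and -0.057 to 0.20 for Cubn to the reference in Control-IR against Control, where the median over reference genes gave -0.048. The cause of these changes was not tested. With 3 libraries a group, the number of libraries and not depth limits the precision.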
